A study of Mus musculus with 6 samples.

Results

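The genes described here are the Hox genes of the 4 Hox clusters, taken as every gene symbol made of Hox, a cluster letter from a to d and a paralog number. They were 39 of the 23364 gene symbols listed for 6 mouse RNA-seq libraries, and 42 of the 31055 transcripts, with 11 genes in the Hoxa cluster, 10 in Hoxb, 9 in Hoxc and 9 in Hoxd. The study compared 3 libraries of osteoblasts with 3 libraries of chondrocytes, the cells that lay down bone and cartilage. The osteoblasts came from calvaria, the roof of the skull, and were sorted for green fluorescent protein (GFP); their genotype is given as Sp7 positive, after a transcription factor required for bone formation, and the sequence that drives the GFP is not described. The chondrocytes came from rib cartilage of wild-type mice and no sort is given for them. All the mice were C57BL/6 at postnatal day 1, and both cell types were used as primary isolates, the osteoblasts released with Liberase TM and the chondrocytes with Pronase and Collagenase D. Cell type, place in the body, sorting, genotype and enzyme all differ between the groups together, so their parts in any difference cannot be told apart. The labels do not say that replicates came from separate animals or litters, so p-values measure only the spread between these libraries.

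Hox genes encode homeodomain transcription factors that give cells of the embryo their position along the body axis. They lie in clusters, and genes at the low-numbered end of a cluster are switched on earlier and nearer the head than those at the high-numbered end, an order called collinearity. Members with the same number in different clusters are paralogs that partly replace each other. In mouse ribs and vertebrae the combination of Hox genes sets which segments carry ribs and what shape they take, whereas much of the front of the skull is built by neural crest cells from a Hox-free region of the head.

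Expression was given as RPKM, the reads of a transcript scaled to its length and to the depth of the library, and the values of a gene's transcripts were added up. A transcript with no reads is listed at 0.0001 RPKM, called the floor here. From the steps between low values each library was estimated to rest on 26900000 to 34620000 reads in osteoblasts and 33560000 to 35820000 reads in chondrocytes, so that 1 RPKM in a transcript of 2 kb stood for 53.8 to 71.6 reads. Markers fitted the labels: all 10 osteoblast markers were higher and all 12 chondrocyte markers lower in osteoblasts, and Col2a1, the main collagen of cartilage, had 23.7, 35.5 and 33.1 RPKM in osteoblasts against 37320, 48030 and 26730 RPKM in chondrocytes.

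Sequences of the Hox loci are shown first, because the results turn on Hox genes, within and between clusters, that differ in RNA. The pair of upstream stretches printed here comes from different clusters, Hoxa and Hoxd. The 250 bases before the start of Hoxa5, among the highest Hox genes of rib chondrocytes, and of Hoxd10, at the floor in all 6 libraries, are printed 5′ to 3′ with every CG pair in capitals. They are RefSeq sequences of build GRCm38.p6, for Hoxa5 at chr6:52204588-52204837 on the minus strand and for Hoxd10 at chr2:74691641-74691890 on the plus strand.
Hoxa5: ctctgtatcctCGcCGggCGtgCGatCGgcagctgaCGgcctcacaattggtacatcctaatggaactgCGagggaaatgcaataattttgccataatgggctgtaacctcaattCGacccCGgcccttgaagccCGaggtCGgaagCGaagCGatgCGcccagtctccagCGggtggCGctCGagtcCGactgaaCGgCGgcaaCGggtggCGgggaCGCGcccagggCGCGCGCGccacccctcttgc
Hoxd10: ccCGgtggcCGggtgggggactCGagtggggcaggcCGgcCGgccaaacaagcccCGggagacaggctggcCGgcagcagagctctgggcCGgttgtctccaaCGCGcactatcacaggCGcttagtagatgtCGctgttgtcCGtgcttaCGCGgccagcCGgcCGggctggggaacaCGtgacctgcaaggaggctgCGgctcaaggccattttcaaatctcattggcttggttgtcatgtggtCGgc
The stretch before Hoxa5 held 28 CG pairs at 63.6% G and C, and that before Hoxd10 held 20 at 65.6%. RefSeq windows of 300 bases, 250 before and 50 after a start, matched 22 of the 39 Hox genes with 24 windows, whose median was 14.5 CG pairs, against a median of 7 over all 32851 windows. The 6 windows of Hox genes with a mean of at least 1 RPKM in chondrocytes had a median of 14.5 CG pairs and a range of 9 to 29, and the 18 windows of other Hox genes had the same median and a range of 4 to 45. The letters TAATTA, a core bound by many homeodomains, were found on either strand in 2 of the 24 Hox windows (8.33%) against 5.29% of all windows. TTTATG, a Cdx-type motif, was in 5 Hox windows (20.8%) against 11.9% of all. TGATNNAT, a composite Pbx and Hox motif, was in 4 (16.7%) against 8.85%, and TATAAA in 4 (16.7%) against 13.6%. The Hox shares rest on these few windows, and their differences from all windows were not tested. None of these 4 words contains another, and a match describes the letters of a window, not a bound site.

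The clusters also hold microRNAs, short RNAs that pair through their seed (bases 2 to 8, in capitals) with sites behind the coding part of an mRNA. The mature sequences (RefSeq, GRCm38.p6) are shown because their sites lie in several of the genes described here, and they fall into 2 seed groups. The miR-196 forms lie at chr11:96265187-96265208 and chr15:102973365-102973386 on the plus strand for miR-196a-5p, and at chr6:52230129-52230150 on the minus strand for miR-196b-5p, and share the seed AGGUAGU.
mmu-miR-196a-5p: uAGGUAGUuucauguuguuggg
mmu-miR-196b-5p: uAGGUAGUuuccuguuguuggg
The miR-10 forms lie at chr11:96317186-96317208 and chr2:74726074-74726096, both on the plus strand, and share the seed ACCCUGU.
mmu-miR-10a-5p: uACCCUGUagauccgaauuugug
mmu-miR-10b-5p: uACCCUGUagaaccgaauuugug
Behind the stop codon, the complement of the miR-196 seed occurred 12 times in 8 of the 39 Hox genes (20.5%), against 5.59% of 19148 protein-coding genes in GENCODE M21 on the same build, or 0.328 against 0.0455 sites per kb. Hoxa7 had 4 such sites, Hoxc8 had 2, and Hoxa4, Hoxa5, Hoxa9, Hoxb1, Hoxb6 and Hoxb7 had 1 each. The miR-10 seed complement occurred in 10.3% of Hox genes against 11.7% of all, among them Hoxa3, Hoxb3 and Hoxd1 with 1 site each. One site from each of the 3 genes with the highest chondrocyte level among the miR-196 holders follows, with the seed match in capitals.
Hoxc8, 892 bases after the stop: ataaatctttaacatACTACCTa
Hoxa5, 456 bases after the stop: gatatttttattcaaACTACCTa
Hoxa7, 500 bases after the stop: tactactagccctaaACTACCTa
The entries for Mir196a-1, Mir196a-2, Mir196b, Mir10a, Mir10b and Mir615 were at the floor in all 6 libraries. Libraries of this kind are not made to capture RNAs of this length, so these values say nothing about the mature microRNAs.

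Rib chondrocytes held RNA of a limited run of Hox genes, and calvarial osteoblasts held next to none. Summed over all 39 genes, the Hox level was 0.395, 0.495 and 0.340 RPKM in osteoblasts, against 124, 81.9 and 119 RPKM in chondrocytes. The osteoblast sums rested on an estimated 29, 40 and 20 reads, against 7617, 5010 and 7737 reads in chondrocytes. No osteoblast library came near the lowest chondrocyte library. In these bulk libraries, fewer cells with Hox RNA and less Hox RNA per cell cannot be told apart.

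**Figure D1:**
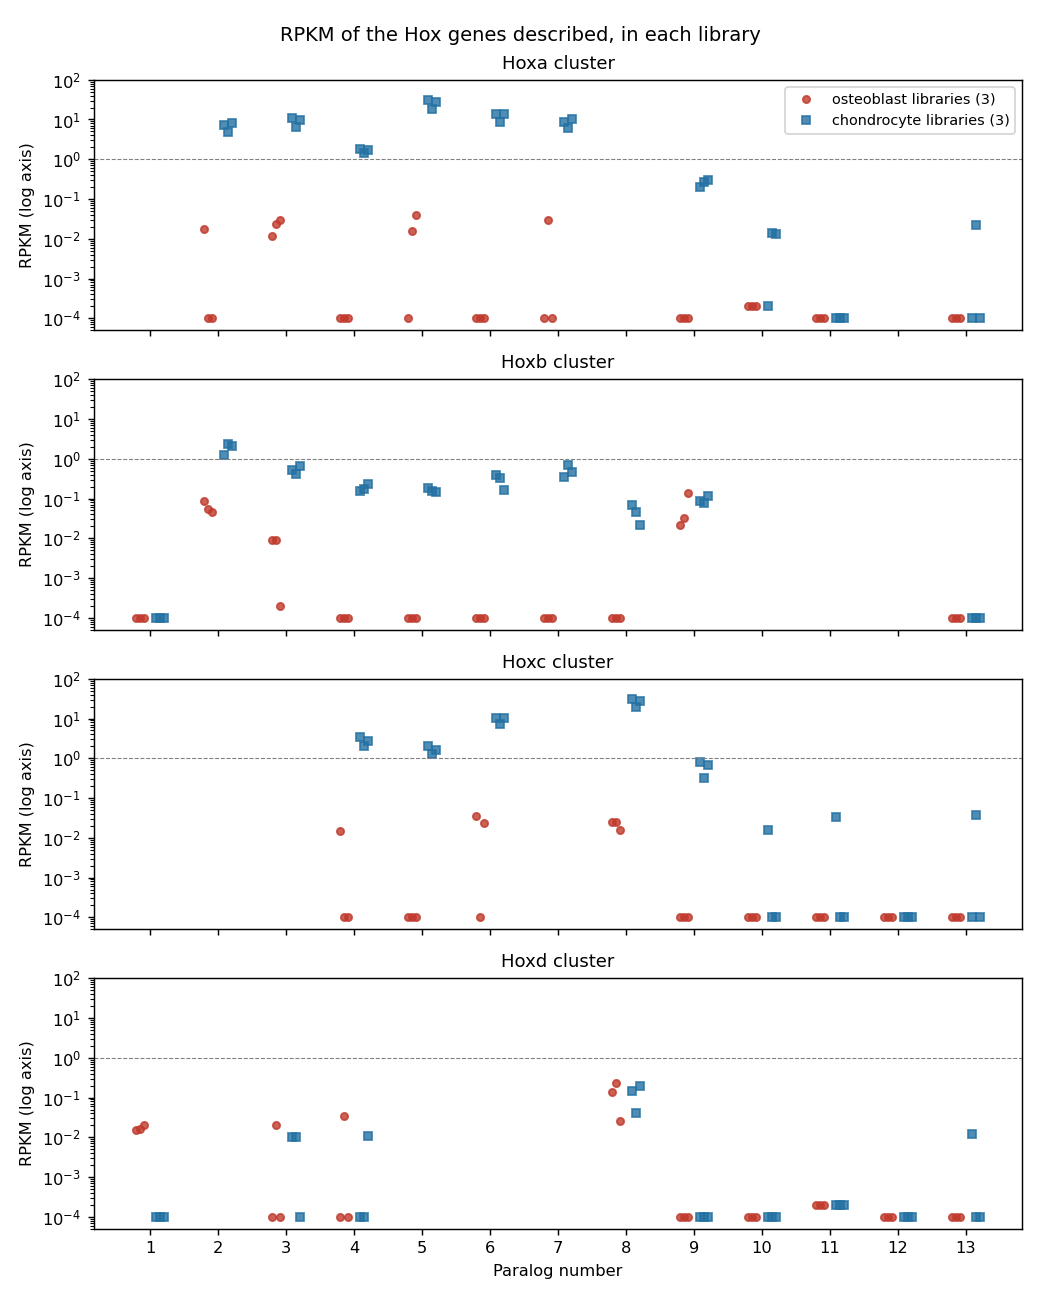
RPKM of the Hox genes described here (log axis) by paralog number, one panel per cluster, with a point for each of the 3 osteoblast libraries (circles) and the 3 chondrocyte libraries (squares); points at 0.0001, or at 0.0002 for genes with 2 transcripts, are at the floor, and the dashed line marks 1 RPKM. Chondrocyte points lie above 1 RPKM for 6 Hoxa, 1 Hoxb and 4 Hoxc genes and for no Hoxd gene, and no osteoblast point reaches 1 RPKM.

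In osteoblasts, 24 of the 39 genes were at the floor in all 3 libraries and 6 were above it in all 3. In chondrocytes, 9 were at the floor in all 3 libraries and 22 were above it in all 3. None of the 39 averaged 1 RPKM in osteoblasts, and 11 did so in chondrocytes. Those 11 were Hoxa2, Hoxa3, Hoxa4, Hoxa5, Hoxa6, Hoxa7, Hoxb2, Hoxc4, Hoxc5, Hoxc6 and Hoxc8.

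The fit across all genes was limma on log2(RPKM + 1), and differences are osteoblast minus chondrocyte on that scale. The added 1 shrinks the differences of genes with low values. Among genes with at least 1 RPKM in at least 3 of 6 libraries, 13.5% of 11218 were called lower in osteoblasts and 55.5% higher, at a Benjamini-Hochberg adjusted p under 0.05. All 11 Hox genes named above were in this fit, and all 11 were called lower. Each entered through its chondrocyte values alone and so had to differ, and the count is not support for a direction of the Hox genes as a group. The limma adjusted p-values given below for these 11 genes come from this fit and carry the same limit. In a fit with no such filter, over the 17940 genes above the floor in any library, 11.0% were called lower and 41.9% higher. There 31 Hox genes could be tested, of which 20 were called lower, 0 higher and 11 neither; by limma at an unadjusted p under 0.05 the counts were also 20 and 0. Every osteoblast library was below every chondrocyte library for 20 Hox genes, an order found in 13.9% of those 17940 genes. Over the 31 Hox genes the median log2 difference was -0.37, beside a median of 0.15 over all genes in that fit. Both counts rest partly on genes with few reads, and 8 Hox genes were at the floor in all 6 libraries and could not be tested. Of the Hox genes, 24 were at the floor in all 3 osteoblast libraries, these 8 among them. Those tested entered through chondrocytes alone and could only be lower or uncalled. The calls of Hoxa4, Hoxa6, Hoxa9, Hoxb4, Hoxb5, Hoxb6, Hoxb7, Hoxb8, Hoxc5 and Hoxc9 are of this kind. The counts and the median carry this limit in part and are not support for a direction of the group.

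**Figure D2:**
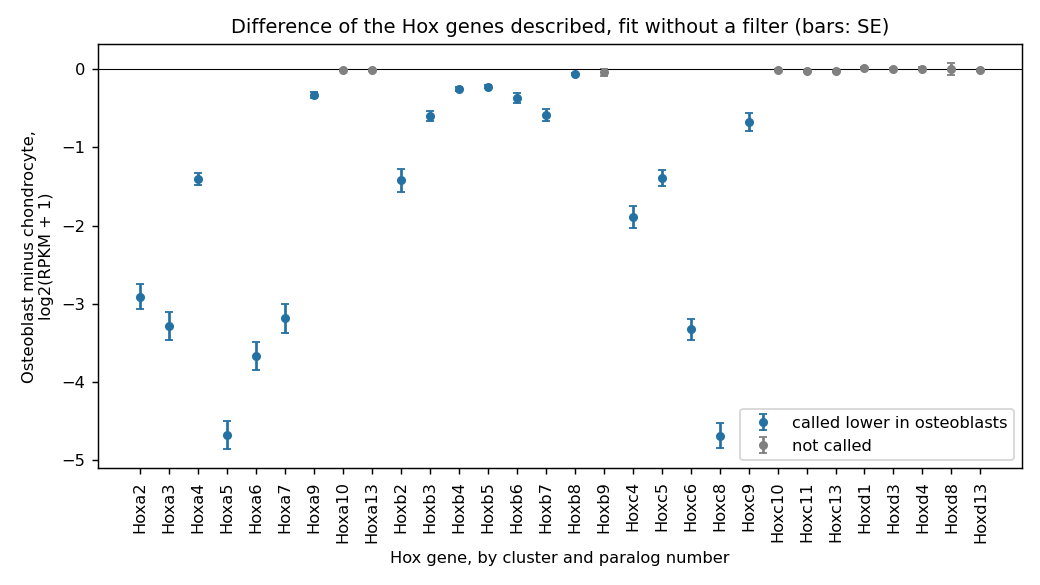
Difference in log2(RPKM + 1), osteoblast minus chondrocyte, of the Hox genes described here in the fit with no filter, ordered by cluster and paralog number, with bars of 1 SE and blue points for genes called lower in osteoblasts. Hoxc8 (-4.69) and Hoxa5 (-4.68) lie lowest, and the Hoxd genes lie between -0.01 and 0.02.

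In the Hoxa cluster the level peaked in the middle. Hoxa5, which patterns the vertebrae where neck meets thorax and is also needed for the lung in mice, was at the floor, 0.0159 and 0.0395 RPKM in osteoblasts, against 30.3, 18.6 and 28.0 RPKM in chondrocytes. The groups lay far apart, and the osteoblast values stood for at most 2 estimated reads (-4.68, SE 0.177, limma adjusted p = 1.73e-06). Hoxa6, its neighbour and a member of paralog group 6, which can promote rib formation in mice, was at the floor in all 3 osteoblast libraries, against 13.99, 8.53 and 13.4 RPKM in chondrocytes. Its difference was -3.67 (SE 0.178, limma adjusted p = 5.01e-06); with 1 group listed at the floor, the size of this difference depends on the added constant.

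Hoxa7, which also acts in the thoracic region, had 0.0305 RPKM in osteoblast replicate 2 and was at the floor in the other osteoblast libraries, against 8.82, 5.99 and 10.4 RPKM in chondrocytes. Hoxa3, needed in mice for the thymus, parathyroid and throat cartilages, had 0.0114, 0.0234 and 0.0292 RPKM in osteoblasts against 11.1, 6.62 and 9.88 RPKM in chondrocytes. Hoxa2, which gives the second pharyngeal arch its identity and whose loss in mice yields a mirrored set of jaw-arch elements, had 0.0172 RPKM in osteoblast replicate 1 and the floor in the others, against 7.18, 4.94 and 7.94 RPKM in chondrocytes. None of the 3 overlapped between groups, and the differences were -3.19 for Hoxa7, -3.29 for Hoxa3 and -2.91 for Hoxa2, with limma adjusted p of 9.22e-06, 7.34e-06 and 8.29e-06. Hoxa4, between Hoxa3 and Hoxa5, broke the run. It was at the floor in all osteoblast libraries, against 1.83, 1.44 and 1.69 RPKM in chondrocytes (-1.40, SE 0.0908, limma adjusted p = 1.71e-05). The Hoxa5 level was 16.6, 12.96 and 16.5 times that of Hoxa4 in the 3 chondrocyte libraries.

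Beyond Hoxa7 the levels of the cluster were low. Hoxa9 was at the floor in all osteoblast libraries, against 0.196, 0.274 and 0.306 RPKM in chondrocytes, and in the fit with no filter its difference was -0.33 (limma adjusted p = 0.000496). Between Hoxa7 and Hoxa9, next to each other in the mouse cluster, the level dropped steeply: Hoxa7 stood 44.9, 21.8 and 33.9 times above Hoxa9 in the 3 chondrocyte libraries. Hoxa10, which keeps lumbar vertebrae free of ribs in mice, and Hoxa13, needed for digits, had no more than 0.0139 and 0.0228 RPKM in any chondrocyte library and the floor in osteoblasts, and neither was called. Hoxa11, a forearm gene, was at the floor throughout.

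The Hoxc cluster repeated the peak in the middle and the drop after paralog 8. Hoxc8, whose loss in mice changes which ribs join the sternum, had 0.0244, 0.0251 and 0.0157 RPKM in osteoblasts, against 30.5, 19.6 and 27.1 RPKM in chondrocytes. The osteoblast values stood for 2 reads or fewer, and the difference was -4.69 (SE 0.161, limma adjusted p = 1.24e-06). Hoxc6, expressed at the level of the forelimb and thorax in embryos, had 0.0363 RPKM, the floor and 0.0233 RPKM in osteoblasts, against 10.3, 7.40 and 10.4 RPKM in chondrocytes (-3.33, SE 0.140, limma adjusted p = 2.77e-06). Both genes were high in every chondrocyte library and near the floor in every osteoblast library. Hoxc4 had 0.0146 RPKM in 1 osteoblast library and the floor in the others, against 3.52, 2.09 and 2.71 RPKM in chondrocytes. Hoxc5 was at the floor in osteoblasts, against 1.98, 1.28 and 1.65 RPKM in chondrocytes. They were called lower in osteoblasts at -1.89 and -1.39, with limma adjusted p of 3.31e-05 and 4.63e-05.

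Hoxc9, the next gene after Hoxc8 in this cluster and a thoracic patterning gene, was at the floor in osteoblasts, against 0.813, 0.311 and 0.680 RPKM in chondrocytes. It was called lower in the fit with no filter (-0.67, SE 0.116, limma adjusted p = 0.00349). In the chondrocyte libraries the Hoxc8 level was 37.5, 63.0 and 39.9 times that of Hoxc9. Of the genes beyond it, Hoxc10, Hoxc11 and Hoxc13, the last known for its part in hair, were each above the floor in 1 chondrocyte library only, at 0.0156 to 0.0367 RPKM, and at the floor in osteoblasts. Hoxc12 was at the floor in all 6 libraries.

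In the Hoxb cluster the same paralog numbers were present at much lower levels. Hoxb2, which acts in the hindbrain, was the one Hoxb gene above 1 RPKM, with 0.0885, 0.0547 and 0.0455 RPKM in osteoblasts against 1.28, 2.31 and 2.07 RPKM in chondrocytes (-1.42, SE 0.146, limma adjusted p = 0.000133). Of its exonic bases 58.5% lie opposite exons of the antisense gene Hoxb3os in GENCODE M21, and the sources used here do not say whether reads were counted by strand, so reads of Hoxb2 and of its antisense partner cannot be told apart. The same holds for Hoxb3, with 50.9% to 70.5% of its 2 transcripts, which had 0.522, 0.413 and 0.656 RPKM in chondrocytes and at most 0.00909 RPKM in osteoblasts (-0.60, limma adjusted p = 0.0004).

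Hoxb4, Hoxb5, Hoxb6, Hoxb7 and Hoxb8, which in mice pattern neck and thoracic segments, were at the floor in all 3 osteoblast libraries and above it in all 3 chondrocyte libraries. Hoxb7 was the highest of them, at 0.351, 0.678 and 0.460 RPKM in chondrocytes, and Hoxb8 the lowest, at 0.0675, 0.0450 and 0.0211 RPKM, or 2 to 6 estimated reads. All 5 were called lower in osteoblasts with no filter, with differences of -0.58 for Hoxb7, -0.37 for Hoxb6, -0.25 for Hoxb4, -0.22 for Hoxb5 and -0.06 for Hoxb8. The limma adjusted p was 0.0283 for Hoxb8, and it was 0.0606 to 0.0772 with any 1 library left out other than chondrocyte replicate 3. Hoxb9 differed from the rest of its cluster, with 0.0215, 0.0330 and 0.137 RPKM in osteoblasts against 0.0882, 0.0771 and 0.113 RPKM in chondrocytes. Its groups overlapped through osteoblast replicate 3, and it was not called (-0.04, limma adjusted p = 0.469), although without that library it was (-0.09, limma adjusted p = 0.0225). Hoxb1, a hindbrain gene, and Hoxb13, active at the tail end of the embryo, were at the floor in all libraries.

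The Hoxd cluster was close to silent in both cell types, and 0 of its 9 genes were called, nor did any of the 5 that limma could test reach an unadjusted p under 0.05. Its sum was 0.158, 0.301 and 0.0468 RPKM in osteoblasts, against 0.169, 0.0529 and 0.207 RPKM in chondrocytes, so the groups overlapped. Hoxd8 made up most of it, with 0.142, 0.229 and 0.0261 RPKM in osteoblasts against 0.146, 0.0418 and 0.195 RPKM in chondrocytes (0.00, SE 0.0777, limma adjusted p = 0.974). Hoxd1, known in mice from pain-sensing neurons, was the one Hox gene with every osteoblast library above every chondrocyte library, at 0.0156, 0.0160 and 0.01997 RPKM in osteoblasts against the floor in chondrocytes. Each of those values stood for 1 estimated read, and it was not called (0.02, limma adjusted p = 0.101). Hoxd3 and Hoxd4, which pattern the upper neck vertebrae, reached at most 0.0205 and 0.0348 RPKM in any osteoblast library and 0.0103 and 0.0110 RPKM in any chondrocyte library. Of their exonic bases 88.0% and 45.1% lie in other genes on the same strand, and how shared reads were counted is not known, so these low values are uncertain. Hoxd13, a digit gene, had 0.0121 RPKM in 1 chondrocyte library, and Hoxd9, Hoxd10, Hoxd11 and Hoxd12 were at the floor in all 6 libraries.

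Hoxb9 and Hoxd8 together supplied a large share of the few Hox reads of osteoblasts. They made up 41.3%, 52.9% and 48.0% of all Hox RPKM in osteoblasts, against 0.189%, 0.145% and 0.260% in chondrocytes. In reads this was 15, 23 and 11 in osteoblasts, against 20, 10 and 29 in chondrocytes, so the groups overlapped for this pair, while for the Hox sum they lay far apart. The listed transcript of neither gene shares exonic bases with another gene in GENCODE M21.

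Arranged by paralog number, the chondrocyte signal dropped steeply between paralogs 8 and 9, to 1.10, 0.662 and 1.10 RPKM in paralog group 9 against 30.7, 19.6 and 27.3 RPKM in group 8. Paralogs 4 to 8, the groups most active in neck and thoracic segments, held 82.5%, 81.0% and 81.3% of all Hox RPKM in chondrocyte replicates 1, 2 and 3. Paralogs 1 to 3 held 16.5%, 18.1% and 17.7%, and paralogs 9 to 13 held 0.933%, 0.900% and 0.939%. Within the middle, paralog group 5 held 24.5% to 26.1%, group 8 held 23.0% to 24.7% and group 6 held 19.9% to 20.2%, whereas group 4 held 3.92% to 4.53% and group 7 held 7.38% to 9.12%. Paralogs 10 to 13, which pattern lumbar, tail and limb regions, summed to 0.0614, 0.0744 and 0.0143 RPKM in chondrocytes and stood at the floor in all osteoblast libraries.

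**Figure D3:**
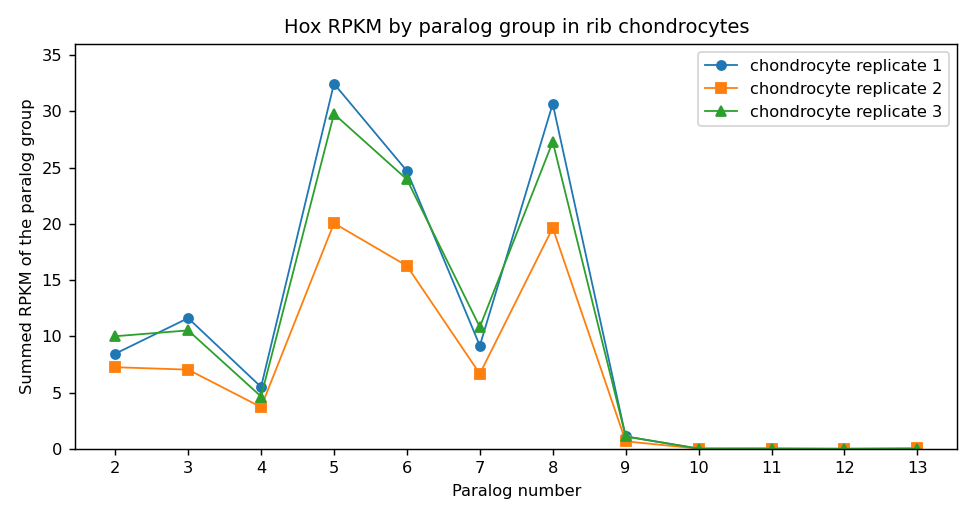
Summed RPKM of paralog groups 2 to 13 in the 3 rib chondrocyte libraries, with a line for each library. All 3 lines peak at groups 5 and 8, dip at groups 4 and 7 and lie near 0 from group 9 on, and replicate 2 is the lowest line at both peaks.

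In the fit with no filter, 11.0% of the genes that could be tested were called lower in osteoblasts. There 13 of the 15 genes of paralogs 4 to 8 were called lower, the other 2 being Hoxd4 and Hoxd8. Of paralogs 1 to 3, 5 of 8 were called lower and 1 could not be tested. Of paralogs 9 to 13, 2 of 16 were called lower, Hoxa9 and Hoxc9, and 7 could not be tested. By cluster the count was 8 of 11 for Hoxa, 7 of 10 for Hoxb, 5 of 9 for Hoxc and 0 of 9 for Hoxd. Genes that could not be tested were 1 in Hoxa, 2 in Hoxb, 1 in Hoxc and 4 in Hoxd. These counts are over all members, so they are not shares of tested genes as the 11.0% is. Genes at the floor in all 3 osteoblast libraries, 8 of those in paralogs 4 to 8, could not be called higher.

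Paralogs of the same number reached unlike levels in chondrocytes, and RPKM, being scaled to length, allows them to be set side by side. Hoxa5 stood 15.3, 14.5 and 17.0 times above Hoxc5 and 161, 119 and 191 times above Hoxb5 in replicates 1, 2 and 3. Hoxa7 stood 25.1, 8.84 and 22.5 times above Hoxb7, and Hoxc8 stood 451, 435 and 1282 times above Hoxb8, the last of these ratios over 2 estimated reads. In paralog group 6 the pair was near equal, with Hoxa6 at 1.35, 1.15 and 1.29 times Hoxc6. Hoxa5 and Hoxc8, from different clusters, ran level at ratios of 0.995, 0.952 and 1.03, and together they made up 46.4% to 48.9% of all Hox RPKM. The Hoxa cluster held 57.3% to 60.7% of the chondrocyte sum, Hoxc 35.8% to 38.0%, Hoxb 2.44% to 5.12% and Hoxd 0.0646% to 0.175%.

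Ranked by chondrocyte mean, Hoxc8 (25.7 ± 5.58 RPKM, SD, n = 3) and Hoxa5 (25.6 ± 6.18) overlapped and stood clear of all others. A second tier of Hoxa6 (11.98 ± 2.997), Hoxc6 (9.37 ± 1.71), Hoxa3 (9.19 ± 2.31), Hoxa7 (8.39 ± 2.22) and Hoxa2 (6.69 ± 1.56) had ranges that overlapped from each gene to the next. A gap followed to Hoxc4 (2.78 ± 0.716), Hoxb2 (1.89 ± 0.541), Hoxa4 (1.65 ± 0.199) and Hoxc5 (1.64 ± 0.349), again overlapping in sequence. Hoxc9, at 0.601 ± 0.260 RPKM, led the rest below a further gap.

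Part of the spread between chondrocyte libraries was shared by the Hox genes. Replicate 2 had the lowest value for 10 of the 11 genes averaging at least 1 RPKM, and its level was a median of 0.673 times the mean of replicates 1 and 3. Hoxb2 was the exception, with its highest value there. Replicate 2 was also the lowest for 7037 of 10270 tested genes averaging at least 1 RPKM in chondrocytes, at a median of 0.836 times the other libraries. After scaling the libraries by the trimmed mean of M-values (TMM) the Hox median was 0.776. Replicate 2 had the highest summed level of the 12 chondrocyte markers, 65660 RPKM against 51230 in replicate 1 and 37080 in replicate 3, and of Tnnt3, a troponin of muscle fibres, 40.1 RPKM against 13.1 and 9.16. Col2a1 made up most of the chondrocyte marker sum. Among the 12 markers only Sox9 (193, 128 and 109 RPKM) and Comp (1920, 1606 and 1642 RPKM) were not highest in replicate 2, but in replicate 1. In chondrocytes Tnnt3 made up nearly all of the summed level of the 10 muscle markers, which was 1.63, 1.73 and 1.14 RPKM in osteoblasts against 13.5, 40.7 and 9.62 RPKM in chondrocytes, and Myod1, Myog, Myf5 and Ckm were at the floor in all chondrocyte libraries. The 10 markers of perichondrium, tendon and fibroblasts summed to 15630, 16570 and 14740 RPKM in osteoblasts, against 4145, 3453 and 11620 RPKM in chondrocytes, with replicate 3 high and replicate 2 low among the chondrocyte libraries. Col1a2 made up most of each of these sums. Of the 10 markers 8 were called higher in osteoblasts, 1 lower and 1 neither, beside 55.5% higher and 13.5% lower over all tested genes. Tnmd was called lower, at 23.2, 37.9 and 17.5 RPKM in osteoblasts against 106, 52.3 and 341 RPKM in chondrocytes. The Hox sum of replicate 3, at 119 RPKM, lay near that of replicate 1. The part of these other cells in the Hox values was not tested.

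Of 22 noncoding RNAs of the clusters looked for, 11 were in the table, and the 2 that could be tested, Mira and Hoxaas3, were called lower in osteoblasts. Both entered the fit through their chondrocyte values alone. Mira, a noncoding RNA between Hoxa6 and Hoxa7, was at the floor in all osteoblast libraries, against 12.6, 9.11 and 13.8 RPKM in chondrocytes (-3.66, SE 0.152, limma adjusted p = 2.67e-06). Hoxaas3, antisense to the middle of the Hoxa cluster and listed as 2700086A05Rik, had 0.0356 RPKM in 1 osteoblast library and the floor in the others, against 5.37, 2.77 and 5.16 RPKM in chondrocytes (-2.39, limma adjusted p = 5.36e-05). Of its exonic bases 35.2% lie opposite Hoxa3 and a read-through gene, and Hoxa3 and Hoxa7 have 25.5% and 28.8% of theirs opposite antisense genes, so their reads cannot be told apart without strand. The listed transcripts of Hoxa5, Hoxa6, Hoxc4, Hoxc6 and Hoxc8 share no exonic base with another gene of GENCODE M21 on either strand. The listed transcript of Mira was not matched there, so its overlap with Hoxa6 or Hoxa7 was not checked. Hotair, in the Hoxc cluster, and Hoxa11as were at the floor in all 6 libraries, as were the microRNA entries given above. Gm53 overlapped between the groups, with 0.0468 RPKM in 1 osteoblast library and the floor in the others, against 0.145, 0.144 and 0.0452 RPKM in chondrocytes.

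Hox proteins bind DNA with partners of the TALE class, the Pbx, Meis and Pknox homeodomain factors. Most of these were present in both cell types. Of 9 TALE genes 8 were tested, of which 4 were called lower in osteoblasts, 2 higher and 2 neither, beside 13.5% lower and 55.5% higher over all 11218 tested genes, with a median log2 difference of -0.60 beside 0.43 over all. Meis1 had 1.76, 2.69 and 1.498 RPKM in osteoblasts, against 21.2, 15.7 and 19.5 RPKM in chondrocytes, with no overlap (-2.74, SE 0.175, limma adjusted p = 1.66e-05). Meis3 went the other way, with 15.7, 16.3 and 14.7 RPKM in osteoblasts against 0.735, 0.467 and 0.907 RPKM in chondrocytes (3.29, SE 0.123, limma adjusted p = 1.67e-06). The Meis genes thus differed in opposite directions, each with groups wide apart.

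Others were called lower in osteoblasts by less. Meis2 averaged 2.51 ± 0.350 RPKM in osteoblasts against 6.02 ± 1.69 RPKM in chondrocytes (mean and SD of 3 libraries here and below), and Pknox2 averaged 0.701 ± 0.0420 RPKM in osteoblasts against 3.49 ± 1.29 RPKM in chondrocytes, with limma adjusted p of 0.00302 and 0.0011. Pbx2 was called higher in osteoblasts, at 10.5 ± 0.571 RPKM in osteoblasts against 5.56 ± 1.00 RPKM in chondrocytes (0.82, limma adjusted p = 0.00114). Pbx3 (-0.28, limma adjusted p = 0.0868) and Pknox1 (0.24, limma adjusted p = 0.0557) were not called, but with the libraries rescaled by median-of-ratios or TMM, Pbx3 was called lower (-0.67) and Pknox1 changed sign (-0.12). Without chondrocyte replicate 2, Pbx3 was called lower (-0.39, limma adjusted p = 0.00727) and Pknox1 higher (0.27, limma adjusted p = 0.0178). Pbx4 was too low to be tested.

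**Figure D4:**
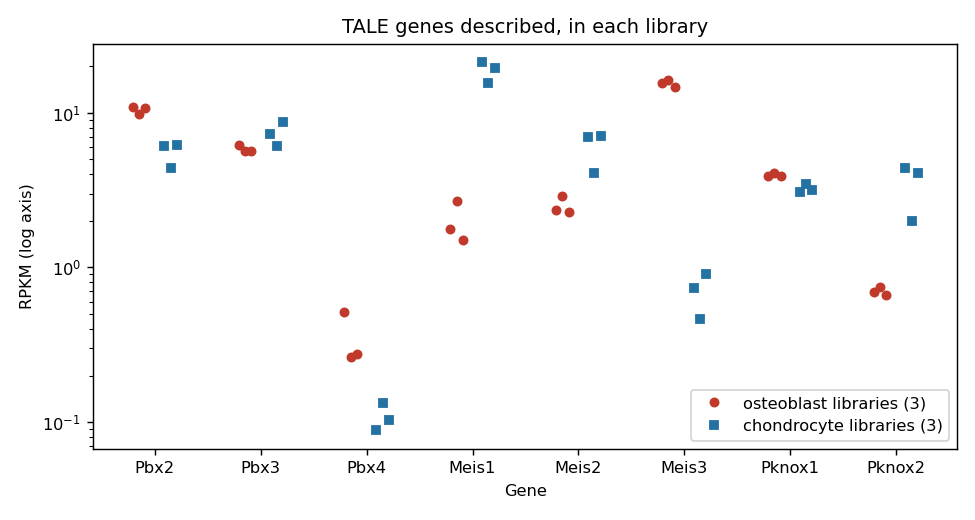
RPKM (log axis) of the TALE genes described here, with circles for the 3 osteoblast libraries and squares for the 3 chondrocyte libraries. Meis1 and Pknox2 lie lower and Meis3 lies higher in osteoblasts with no overlap. The Pbx2 points lie nearer together but also do not overlap between the groups, whereas those of Pbx3 do.

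Polycomb proteins keep Hox genes silent by marking and compacting their chromatin, and Trithorax proteins and H3K27 demethylases oppose them. All 28 Polycomb genes listed were tested, of which 3 were called lower in osteoblasts and 10 higher, but 8 or 9 lower and 5 higher once the libraries were rescaled. Rescaling also moved the median over all tested genes to 0.05, and the shares of all genes called after it are not given here. As deposited, the share called higher was below the 55.5% of all tested genes, and the median difference was 0.26 beside 0.43 over all. Ezh2, the main methyltransferase of this system, had 7.23, 8.39 and 6.38 RPKM in osteoblasts against 2.99, 3.43 and 3.02 RPKM in chondrocytes, with no overlap (1.00, SE 0.119, limma adjusted p = 0.000269). Its paralog Ezh1 averaged 5.03 ± 0.260 RPKM in osteoblasts against 6.95 ± 1.08 RPKM in chondrocytes (-0.39, limma adjusted p = 0.0243). Pcgf3 (0.94), Phc2 (0.84) and Cbx2 (0.81), subunits of Polycomb complexes that ubiquitinate histone H2A, were called higher, and Pcgf5 (-0.65), of the same family of complexes, lower. The call of Ezh1 ended without any 1 of the osteoblast libraries or chondrocyte replicate 1 (limma adjusted p = 0.0536 to 0.0817). Cbx6 (0.19) and Pcgf2 (0.25) were not called, and both changed sign on rescaling.

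Of 13 Trithorax and demethylase genes 1 was called lower in osteoblasts and 7 higher, against 4 and 4 once rescaled, where the shares of all genes are not given. As deposited, the share called higher was near the 55.5% of all tested genes, and the median of 0.44 was near the 0.43 over all. The one called lower was Kdm6a, an H3K27 demethylase, at 4.52 ± 0.320 RPKM in osteoblasts against 7.80 ± 0.691 RPKM in chondrocytes (-0.67, limma adjusted p = 0.000934). Psip1 (1.22), Dpy30 (0.91), Men1 (0.86) and Ash2l (0.81), which are parts or partners of H3K4 methyltransferase complexes, were called higher in osteoblasts. Kdm6b (0.29) and Wbp7 (0.11), a methyltransferase also named Kmt2b, were not called, and both changed sign on rescaling (-0.13 and -0.29). Wbp7 was then called lower in osteoblasts, with limma adjusted p of 0.0106 by median-of-ratios and 0.00965 by TMM.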

How the data were processed

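RNA-seq of 3 osteoblast and 3 chondrocyte libraries was used as deposited. The authors' table gives RPKM per RefSeq transcript; reads were aligned with TopHat2 2.0.8 to mm9, per the submitters' processing notes, and the counting program, its strand setting and its treatment of shared reads are not given in the sources used here. Each value as deposited carries a constant of 0.0001. RPKM was summed per gene symbol. Reads were estimated from the steps in low values with GENCODE M21 lengths; 64.2% to 65.3% of low values came within 0.05 of a whole number. GENCODE describes GRCm38, so it gave lengths, overlaps and target sites. The coordinates printed with the sequences are RefSeq positions on GRCm38.p6, not on the mm9 build used for alignment.

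Genes reaching 1 RPKM in 3 or more of the 6 libraries were tested two-sided on log2(RPKM + 1) with limma 3.58.1 (R 4.3.3), with variance trend and robust moderation, and Benjamini-Hochberg adjustment over all 11218 tested genes at 0.05. A fit over 17940 genes with no filter was added after the values were seen. The procedure was tested on simulated data. The Hox genes and the gene lists were chosen with earlier results of these data known. All Hox genes enter the counts and sums; from each other list up to 4 called genes by size of difference and up to 2 uncalled genes by mean RPKM are named, plus the members of a count of 5 or fewer. Values of a few genes are not reported here. Alternatives were pseudocounts of 0.1 and 5, no filter or a mean of at least 5 RPKM, 2 scalings, a replicate block, 1 transcript per gene and each library left out.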

Additional observations from a re-analysis of the deposited data

How the results depend on the processing

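The 11 Hox genes of the filtered fit kept their direction and their call under each alternative in which they were tested; the highest adjusted p was 0.00129, for Hoxb2. Since they passed the filter through chondrocytes alone, this is no sign of stability. With a mean of at least 5 RPKM required, 3 Hox genes were tested and called lower, and with no filter 20. The size of a difference depends on the pseudocount, from -2.60 (5) to -7.70 (0.1) for Hoxc8. Scaling by median-of-ratios or TMM moved the median difference of all tested genes to 0.05, against 0.43 as deposited. The shares of all genes called under these scalings are not given here, so the rescaled counts below have no such share beside them. The called counts that moved by over 1.5 times were as follows, in osteoblasts. Polycomb genes called lower were 8 with median-of-ratios, 9 with TMM, 5 with 1 transcript per gene, 1 without osteoblast replicate 1 or 3 or chondrocyte replicate 1 and 5 without chondrocyte replicate 2, and those called higher were 5 with either scaling. Trithorax genes called lower were 4 with either scaling and 1 to 3 with 1 library left out (3 without chondrocyte replicate 2), and those called higher 4 with either. Upstream genes called lower were 2 with no filter, 3 with either scaling, 1 with 1 transcript per gene and 0 to 2 with 1 library left out (2 without chondrocyte replicate 2). With a mean of at least 5 RPKM, 2 TALE and 0 flanking genes were called lower and 5 upstream and 5 flanking genes higher; TMM gave 2 flanking genes lower. The cause of these moves was not tested, beyond the smaller or larger number of genes tested.

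Among the genes named, signs changed only for differences that were not called as deposited. Under median-of-ratios and TMM the values were -0.12 for Pknox1 with both (-0.04 with 1 transcript per gene), -0.24 and -0.25 for Cbx6, -0.17 for Pcgf2, -0.13 for Kdm6b, -0.29 for Wbp7, -0.21 and -0.22 for Rxrb, -0.26 for Hnrnpa1, -0.34 and -0.35 for Calcoco1 and -0.04 for Hoxd8. Hoxd8 was -0.01 with a pseudocount of 0.1. With 1 library left out, reversed values were 0.00 for Hoxd3, -0.01 for Hoxd4, 0.02 for Rarg, -0.15 for Cbx6 (up to 0.42 in other leave-one-out fits) and -0.03 for Calcoco1 (up to 0.19), and Hoxd8 ranged over -0.06 to 0.07. Beside Pbx3, Pknox1 and Hoxb9, whose gained calls are given above, the genes that gained a call were Wbp7, lower with either scaling (-0.29, against its sign as deposited), and the following. Rarg was lower with either scaling (-0.51 and -0.52) and with 1 transcript per gene (-0.59), Rxrb (0.27) and Hnrnpa1 (0.33) were higher without chondrocyte replicate 2, Pcgf2 (0.37) without chondrocyte replicate 3 and Kdm6b (0.37) without osteoblast replicate 3.

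Same-numbered libraries did not deviate together (correlations 0.08, 0.01 and -0.16), and libraries with unlike numbers spanned -0.15 to 0.13. This gave no sign that the numbers pair the samples, but 3 libraries per group cannot settle it. With the replicate block, 11 Hox genes were called lower in the filtered fit and 20 with no filter, as without it. Depth limits the low genes: a Hox gene at 1 to 3 estimated reads cannot be told from one at the floor.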

Other observations

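Genes known to act upstream of Hox genes and genes that flank the clusters gave values outside the comparisons above. Of 26 genes of the Cdx, Gdf11, retinoic acid and hindbrain inputs, 13 were tested, of which limma called 0 lower in osteoblasts (also 0 at an unadjusted p under 0.05) and 8 higher, but 3 were called lower under either other scaling and 2 with no filter. Over all tested genes as deposited 13.5% were called lower and 55.5% higher, so the share called higher was near that of all genes. With no filter 11.0% of all genes were called lower, and the shares under the other scalings are not given here. The median log2 difference of the 13 was 1.28, beside 0.43 over all tested genes. Cdx2 and Cdx4, which drive trunk Hox genes in embryos, were at the floor in all 6 libraries. Gdf11, a signal that sets the start of the tail-ward Hox genes, had 4.12, 4.94 and 3.92 RPKM in osteoblasts against 0.509, 0.0493 and 0.615 RPKM in chondrocytes (1.96, limma adjusted p = 7.64e-05). Crabp1, which binds retinoic acid in the cytoplasm, averaged 19.8 ± 6.19 RPKM in osteoblasts against 0.472 ± 0.476 RPKM in chondrocytes (3.82). Egr2 (2.05), a regulator of hindbrain Hox genes, was also called higher in osteoblasts. Rarg (-0.07) and Rxrb (0.21), retinoid receptors, were not called.

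Of 18 flanking genes found, 12 were tested, of which 1 was called lower in osteoblasts and 8 higher, beside 13.5% and 55.5% of all tested genes. The one called lower was Skap2, which flanks the Hoxa cluster, with 1.63, 1.48 and 1.40 RPKM in osteoblasts against 7.76, 6.41 and 6.84 RPKM in chondrocytes and no overlap (-1.67, SE 0.107, limma adjusted p = 1.66e-05). Mtx2 (1.70) and Atp5g3 (1.29), near the Hoxd cluster, and Atp5g1 (1.39), near Hoxb, were called higher. Evx2 was at the floor in all 6 libraries, and Evx1, beside Hoxa13, was above it in 1 chondrocyte library at 0.0104 RPKM. Hnrnpa1 (0.19) and Calcoco1 (0.08) were not called.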
